A study of Homo sapiens with 4 samples.

Results

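The change between 24 h and 48 h of SAF-A depletion was measured in RPE1 cells, an epithelial line from human retinal pigment epithelium immortalised with telomerase. Genes entered when their transcript levels, in FPKM (read fragments corrected for transcript length and sequencing depth) summed over the RefSeq rows of a symbol, averaged 20 or more over both SAF-A siRNA libraries and their spliced length was 300 nt or more. Of 25027 genes in the tables, 3403 met this rule, and 3321 of them code for protein. The series holds 4 libraries of total RNA depleted of ribosomal RNA, 1 for each condition: control siRNA at 24 h, SAF-A siRNA at 24 h, control siRNA at 48 h and SAF-A siRNA at 48 h. Cells of every condition were transfected with 10 nM Stealth siRNA by lipofection, so the controls also carried an siRNA. With 1 library a side nothing could be tested, and a difference here compares libraries, not conditions. In bulk RNA, fewer cells of a type and less RNA per cell cannot be told apart.

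SAF-A is hnRNP U, the product of HNRNPU, which is plentiful in nuclei and has both DNA-binding and RNA-binding domains. It is known for its association with chromatin-bound RNA, for retaining XIST RNA on the inactive X chromosome, and for effects on chromatin compaction and on splicing. Other hnRNP and SR proteins package nascent RNA and steer its splicing, and many of their own transcripts are controlled by splicing.

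The SAF-A siRNA is shown to place its target site. Only perfect matches were searched, so partial matches elsewhere were not assessed. Written as DNA, its labelled sense strand matched the genome perfectly at 1 position, GRCh37 chr1:245018884-245018908 on the minus strand, within the coding sequence of exon 12 of the canonical HNRNPU transcript. All letters are in capitals because the whole run matched.
SAF-A siRNA: CCTGGGAATCGTGGCGGATATAATA

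HNRNPU was low at both times of SAF-A siRNA. Its level was 91.2 FPKM in control at 24 h, 10.4 in SAF-A siRNA at 24 h, 84.6 in control at 48 h and 9.24 in SAF-A siRNA at 48 h. Both SAF-A libraries were thus far below both controls, at 11.4% of control at 24 h and 10.9% at 48 h. The level at 48 h was 88.5% of that at 24 h, with a range of 62.1% to 122% from the deposited 95% bounds, which cover estimation within a library only. About 74.0 reads stood behind the 48 h value, and with a mean of 9.84 FPKM HNRNPU itself did not meet the level rule.

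The SAF-A library at 48 h stood apart in depth. The deposited coverage implied 1216740 mapped reads for it and 28083822 to 30701282 for the other 3 libraries, so the median member had about 119 reads at 48 h against 2350 at 24 h, and 25 members had fewer than 10. RNAs shorter than 300 nt took 50.9% of all FPKM in that library and 57.3% to 63.8% in the others, while the 3403 members took 43.4% against 31.1% at 24 h (33.5% and 35.8% in the controls). Of 12 markers of differentiated retinal pigment epithelium, 10 were under 1 FPKM in every library (the exceptions were MITF and OTX2), with summed levels of 7.36 to 13.9 FPKM. Of 9 markers of cultured adherent RPE1-like cells, 8 were members, with a summed level of 11561 FPKM in SAF-A siRNA at 48 h and 4530 to 5108 in the others. That sum was carried by S100A6, LGALS1 and VIM, while KRT8, KRT18, KRT7, CD44 and ANXA2 were at their lowest in that library. All 4 erythroid, 4 endothelial and 4 muscle markers were under 1 FPKM in all libraries, as were 5 of 6 leukocyte markers (not CD68) and 3 of 4 neuronal markers (not TUBB3).

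Between 24 h and 48 h of SAF-A siRNA, 980 of 3403 members (28.8%) were higher and 353 (10.4%) were lower by 2-fold or more on the log2(FPKM + 1) scale, the threshold used throughout for "rose" and "fell". The same genes measured between the control libraries gave 8 higher (0.235%) and 17 lower (0.500%). The SAF-A changes had a median of 0.48 and an SD across genes of 1.07, against 0.03 and 0.28 in the control pair. Requiring deposited intervals that did not overlap left 967 members (28.4%) higher and 349 (10.3%) lower. The pairs share no library, and 6 genes rose and 8 fell in both, while 1, NCKAP1, was called in opposite directions.

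The balance between higher and lower depended on the scale. Higher genes made up 73.5% of the calls as deposited, 40.2% after subtracting the median of all members (437, or 12.8%, higher and 649, or 19.1%, lower), 59.2% after rescaling genes of 300 nt or more to an equal sum, and 84.1% on a TPM scale. The median of all members was 0.28 and 0.70 on these last scales. Each group of genes below is therefore given beside the median of 0.48, and the sign of its median was followed across these scales. The level rule also admits genes that are high at 1 time only: 561 members were under 20 FPKM at 24 h, of which 345 rose, and 280 were under 20 FPKM at 48 h, of which 166 fell. Over all 10841 genes of 300 nt or more with a mean of 1 FPKM or more, 1762 (16.3%) were higher and 1649 (15.2%) lower.

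**Figure D1:**
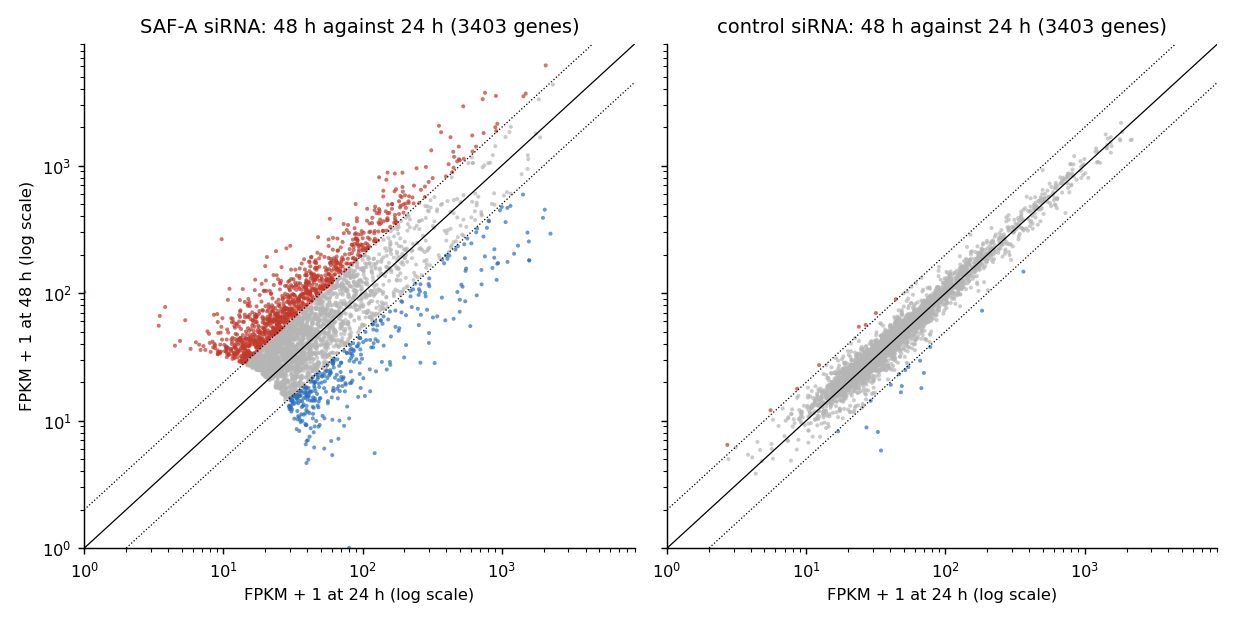
FPKM + 1 of each of the 3403 members (log axes) at 24 h (horizontal) and 48 h (vertical), for the SAF-A siRNA pair and the control siRNA pair; points at 2-fold or more are red where higher and blue where lower, the solid line marks equality and the dotted lines mark 2-fold. The SAF-A pair spreads over both dotted lines, with 980 red and 353 blue points, and the control pair holds 8 and 17.

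The change in the SAF-A pair was graded by exon structure. The rule used spliced length and mean level, and junctions per kb has spliced length in its denominator, but junctions themselves were not used. The 99 members without an exon junction had a median log2 change of -1.67, and none rose while 61.6% fell. Members with up to 1 junction per kb of transcript had a median of -0.61, those with 2 to 3 had 0.26, those with 4 to 5 had 0.72 and those with 7 to 8 had 1.19, of which 59.3% rose. Across 3402 members the Spearman correlation of the change with junctions per kb was 0.44 in the SAF-A pair and 0.08 in the control pair, a description over genes that share 1 pair of libraries. At 24 h the SAF-A library did not show the gradient: its median difference from control ran from -0.07 to 0.09 over the 10 classes. The number of exons gave 0.31 (control 0.00), GC content 0.13 (control 0.06), mean level 0.10 (control 0.03) and spliced length -0.02 (control -0.06).

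A similar grading followed named pseudogenes, counted as RefSeq pseudogenes whose symbol is that of the gene followed by P and a number. Whether these copies are processed, and so lack introns, was not checked. The 2409 members without one had a median change of 0.61, those with 3 to 5 had -0.18, and those with more than 20 had -0.89, or -1.42 without ribosomal protein genes (20 genes). The control medians of these classes ran from 0.01 to 0.13. The Spearman correlation of the change with the number of pseudogenes was -0.25 in the SAF-A pair and 0.02 in the control pair. GAPDH, the glycolytic enzyme with 65 named pseudogenes, was at 1536, 1420 and 1526 FPKM in control at 24 h, SAF-A siRNA at 24 h and control at 48 h, and at 592 in SAF-A siRNA at 48 h. How much junction density, pseudogenes or depth contribute to any gene's change was not tested. Most lists below are also given within classes (changes minus the median of members with like junction density and pseudogene status) or over the 1913 members with 2 or more junctions per kb and no named pseudogene. Among those 1913, 739 (38.6%) rose and 56 (2.93%) fell, with a median of 0.77. Within classes, 365 members (10.7%) were higher and 456 (13.4%) lower.

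**Figure D2:**
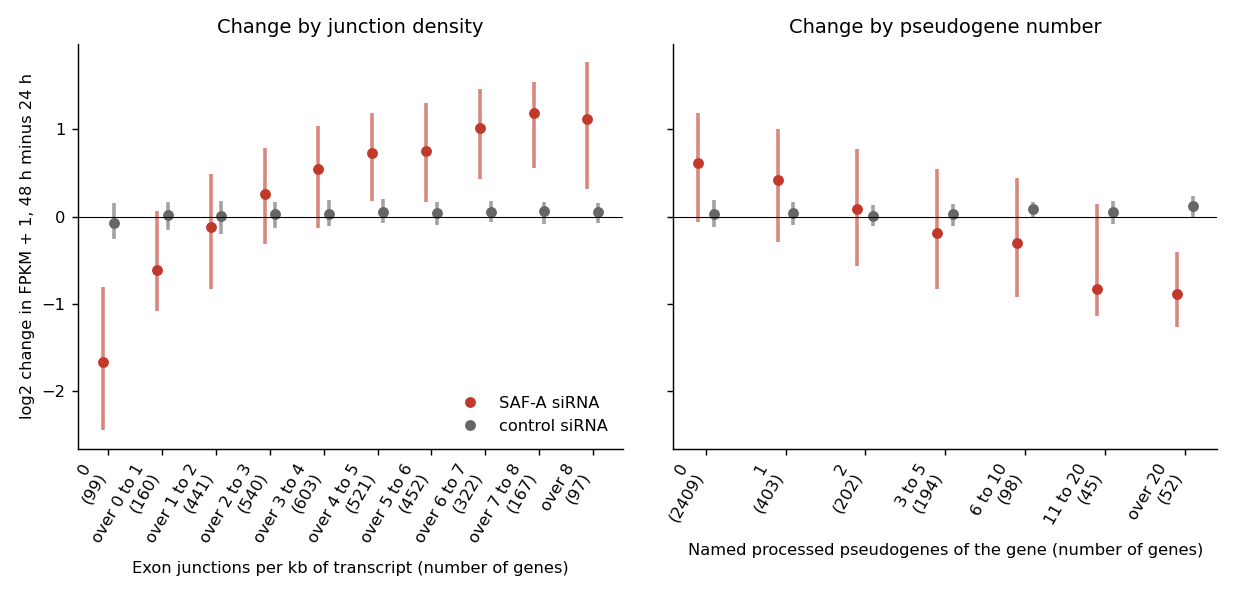
Median (points) and quartiles (bars) of the log2 change from 24 h to 48 h, by exon junctions per kb and by number of named pseudogenes, for the SAF-A siRNA pair (red) and the control pair (grey). The axis calls the pseudogenes processed, which was not checked. The red medians climb from -1.67 without a junction to 1.19 at 7 to 8 per kb and fall from 0.61 without a pseudogene to -0.89 above 20, while the grey medians lie near 0.

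Among 28 lists of related genes, those for lysosomes, sterol synthesis, the proteasome, interferon response, the respiratory chain and p53 targets had the medians furthest above that of all members, and those for histones, mitosis, YAP targets, chromatin architecture and hnRNP and SR proteins lay furthest below it. The lists were chosen with earlier results of these data known, so their direction is a description.

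**Figure D3:**
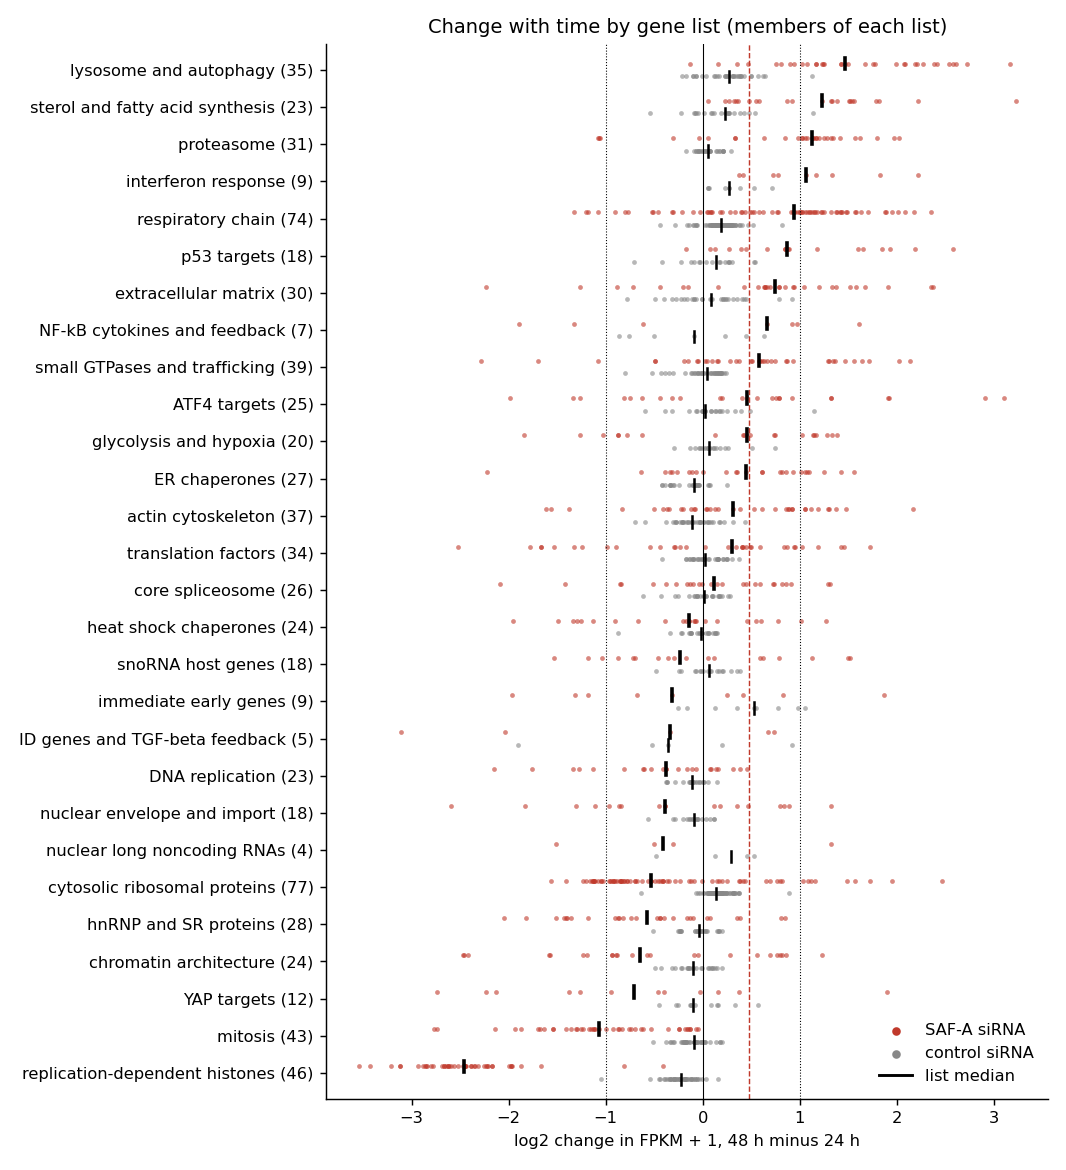
Log2 change from 24 h to 48 h for each member of each gene list in the SAF-A siRNA pair (red) and the control pair (grey); black ticks are list medians, the dashed line is the median of all members (0.48) and dotted lines mark 2-fold. Histones and mitotic genes lie to the left and lysosomal and sterol genes to the right in the SAF-A pair, and most grey points stay inside the dotted lines.

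Lysosomal genes had the highest median change of the 28 lists. Lysosomes degrade proteins, lipids and sugars in an acid compartment, and their hydrolases are made in the endoplasmic reticulum and delivered by trafficking. Of 35 members on the lysosome and autophagy list, 27 rose and 0 fell (28.8% and 10.4% of all members), and 1 rose in the control pair. The median change was 1.46, or 0.99 above the median of all members, against 0.27 in controls. Within classes 19 rose and 0 fell, and among the 26 members with 2 or more junctions per kb and no named pseudogene 22 rose, with a median of 1.76. The list's median stayed positive in each of 14 settings of filter, scale and gene choice, from 0.99 to 1.76. The remaining 11 genes of the list were under the level rule.

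Among the hydrolases, CTSK, the collagen-degrading protease cathepsin K, was at 19.9 FPKM in control at 24 h, 22.9 in SAF-A siRNA at 24 h, 18.5 in control at 48 h and 212 in SAF-A siRNA at 48 h. The late SAF-A library alone was high, by 9.29-fold over 24 h, and its interval (192 to 233) lay above that at 24 h (21.5 to 24.2). CTSA, the protective protein that stabilises other lysosomal enzymes, was at 27.5, 25.2 and 35.0 FPKM in control at 24 h, SAF-A siRNA at 24 h and control at 48 h, and at 159 in SAF-A siRNA at 48 h. Here too the first 3 libraries lay close together and the last stood far above them. CTSD, the aspartic protease cathepsin D, went from 125 to 424 FPKM, with controls at 126 and 194.

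Among cofactors and membrane proteins, PSAP, the precursor of the saposins that present lipids to hydrolases, was at 383, 353 and 570 FPKM in control at 24 h, SAF-A siRNA at 24 h and control at 48 h, and at 2054 in SAF-A siRNA at 48 h. The control level also was higher at 48 h, by less than 2-fold. CD63, a tetraspanin of lysosomes and endosomes and the most abundant member of the list, was at 677, 729, 731 and 3322 FPKM. NPC2, which carries cholesterol out of lysosomes, was at 131, 147, 155 and 774 FPKM. The ferritin chains, which store iron and are degraded by autophagy, did not reach 2-fold: FTH1 went from 100 to 91.3 FPKM and FTL from 824 to 1055.

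The letters CACGTG, the core of the sequence bound by TFEB and other E-box factors at lysosomal genes, were searched in RefSeq promoters (GRCh38.p14, 250 bases before to 50 after the start, both strands, a motif added after the data were seen). They occurred in 7.43% of 27305 promoters, 10.9% of the 2828 members with a promoter, 13.1% of members that rose, 7.67% of those that fell and 6 of 21 lysosomal members (28.6%). Promoters of CTSA (chr20:45891085-45891384, plus strand) and CD63 (chr12:55728960-55729259, minus strand) are shown as members that hold the motif, with CACGTG in capitals.
CTSA: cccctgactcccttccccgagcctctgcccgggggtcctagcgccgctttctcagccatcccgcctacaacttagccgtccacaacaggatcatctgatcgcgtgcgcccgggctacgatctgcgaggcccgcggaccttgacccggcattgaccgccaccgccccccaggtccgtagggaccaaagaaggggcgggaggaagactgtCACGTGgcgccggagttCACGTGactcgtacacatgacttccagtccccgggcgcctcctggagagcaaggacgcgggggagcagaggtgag
CD63: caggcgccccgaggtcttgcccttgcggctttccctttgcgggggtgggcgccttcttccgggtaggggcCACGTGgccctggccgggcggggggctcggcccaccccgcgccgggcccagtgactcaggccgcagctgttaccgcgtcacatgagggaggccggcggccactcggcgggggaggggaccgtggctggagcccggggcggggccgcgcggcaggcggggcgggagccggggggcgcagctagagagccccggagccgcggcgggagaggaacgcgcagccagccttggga
A match is a description of letters, not a bound site. The median change of the 309 members with the motif was 0.55 and of those without it 0.48.

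Mitotic genes were lower at 48 h. The list holds cyclins, spindle, kinetochore, checkpoint and cytokinesis genes, which are transcribed in G2 and mitosis and then shut off. Of 43 members 22 fell and 0 rose, and all 43 had a negative change, with a median of -1.06 (1.54 below all members). In the control pair 0 of 43 were called and the median was -0.09. Within classes 36 fell, and among the 23 members with 2 or more junctions per kb and no named pseudogene 8 fell, with a median of -0.83. The median stayed negative in each of 14 settings, from -1.61 to -0.83.

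MAD2L1, which encodes the checkpoint protein MAD2, was at 78.6 FPKM in control at 24 h, 67.2 in SAF-A siRNA at 24 h, 73.6 in control at 48 h and 9.01 in SAF-A siRNA at 48 h. The late SAF-A value was 7.46-fold under the early one, but rested on about 13.5 reads. PTTG1, the securin that holds separase inactive until anaphase, was at 110, 112, 100.2 and 15.98 FPKM in that order of libraries. CCNA2, the cyclin of S phase and G2, was at 77.3, 70.6, 76.1 and 17.7 FPKM. CDK1, its kinase partner and the driver of mitotic entry, was at 92.9, 85.4, 93.9 and 34.1 FPKM. All of these were level in the first 3 libraries and low in the last. The tubulins of the spindle, which also form the interphase cytoskeleton, were the most abundant members: TUBA1B went from 738 to 277 FPKM and TUBB from 548 to 148. Other members stayed under 2-fold: BUB1B, a checkpoint kinase, went from 35.3 to 33.5 FPKM, AURKB, the kinase of the chromosomal passenger complex, from 42.3 to 38.7, and BUB3 from 204 to 198.

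Mitotic promoters carry the cell cycle homology region (CHR, searched as TTTGAA or TTCGAA) and the CCAAT box, letters through which the DREAM and MMB complexes and NF-Y are known to act. CHR letters occurred in 24 of 36 mitotic members with a promoter (66.7%), against 16.6% of all promoters, 11.4% of members, 7.62% of those that rose and 21.3% of those that fell. CCAAT occurred in 29 of the 36 (80.6%), against 35.7%, 40.3%, 36.2% and 52.3%. Among the 45 members with a promoter that fell and had 2 or more junctions per kb and no named pseudogene, 26.7% held CHR letters and 64.4% held CCAAT. The 322 members with CHR letters had a median change of 0.08 and those without had 0.52. Within classes these medians were -0.22 and 0.01. Members with CHR letters include mitotic genes and histones (15 of 43 histone promoters). MAD2L1 (chr4:120066799-120067098, minus strand) and CDCA3 (chr12:6851237-6851536, minus strand), a trigger of mitotic entry, are shown with CHR letters and CCAAT or its reverse complement ATTGG in capitals.
MAD2L1: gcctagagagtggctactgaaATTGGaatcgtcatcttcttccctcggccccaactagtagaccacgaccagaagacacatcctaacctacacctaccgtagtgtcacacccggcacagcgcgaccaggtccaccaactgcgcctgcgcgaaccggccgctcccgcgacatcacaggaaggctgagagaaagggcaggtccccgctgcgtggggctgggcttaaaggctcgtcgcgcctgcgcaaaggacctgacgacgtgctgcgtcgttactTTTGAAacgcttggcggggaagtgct
CDCA3: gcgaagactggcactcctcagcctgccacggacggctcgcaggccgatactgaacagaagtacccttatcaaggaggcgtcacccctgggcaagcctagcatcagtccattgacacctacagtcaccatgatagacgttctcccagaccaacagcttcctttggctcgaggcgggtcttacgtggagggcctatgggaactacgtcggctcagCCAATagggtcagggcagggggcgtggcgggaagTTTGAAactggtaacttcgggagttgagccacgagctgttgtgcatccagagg

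**Figure D4:**
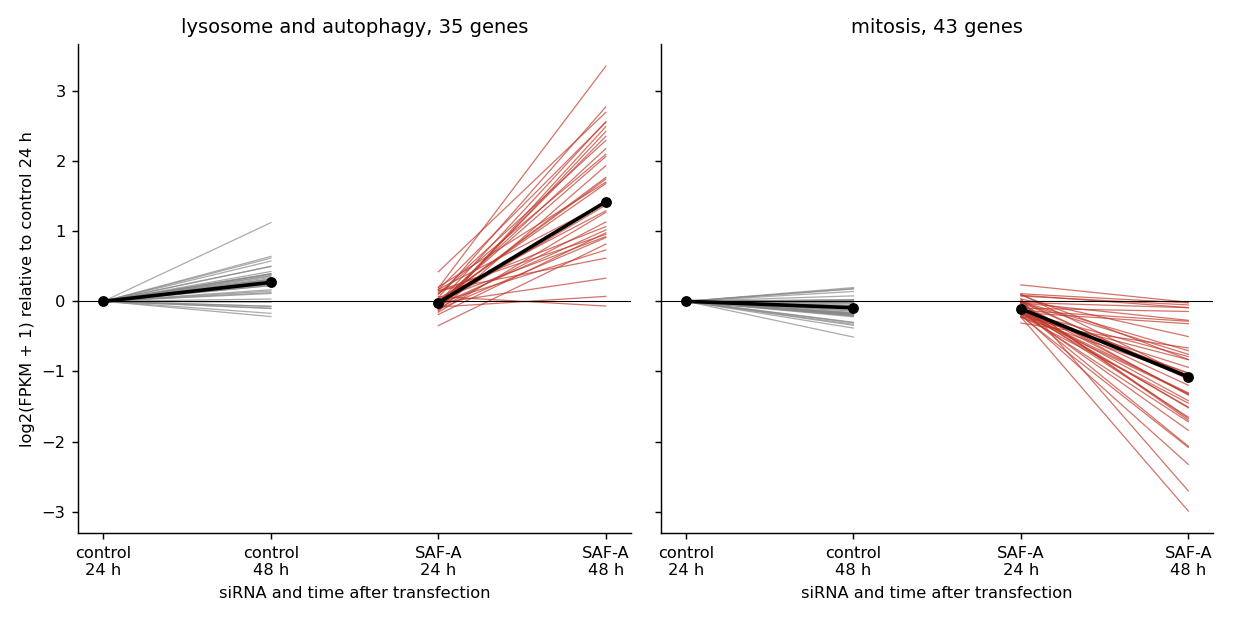
Log2(FPKM + 1) of each lysosomal and each mitotic member relative to control siRNA at 24 h, in the 4 libraries; thin lines are genes and black points are medians. The medians of both lists stay near 0 in SAF-A siRNA at 24 h and control at 48 h, and separate in SAF-A siRNA at 48 h, where 27 of 35 lysosomal members had risen and 22 of 43 mitotic members had fallen.

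DNA replication genes shifted less. Of 23 members 5 fell and 0 rose (median -0.38, control -0.11), 13 fell within classes, and 3 of 16 with 2 or more junctions per kb and no named pseudogene fell. The median was negative in each of 14 settings. FEN1, the flap endonuclease that trims Okazaki fragments, was at 73.3, 65.4 and 81.5 FPKM in control at 24 h, SAF-A siRNA at 24 h and control at 48 h, and at 13.96 in SAF-A siRNA at 48 h. RRM2, the regulatory subunit of ribonucleotide reductase, went from 71.2 to 20.3 FPKM and RRM1, its catalytic partner, from 80.5 to 32.7. CDC6, which loads the replicative helicase, went from 33.5 to 12.7 FPKM. SLBP, whose protein binds histone mRNA ends, was at 51.1 and 56.2 FPKM, under 2-fold.

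Replication-dependent histones fell as a block. Their mRNAs are made in S phase, lack introns and end in a stem-loop in place of a poly(A) tail. Of 46 members 44 fell and 0 rose, with a median of -2.46 (control -0.23, where 1 of 46 fell). All but 3 of these genes had no exon junction, the class with a median of -1.67, so no member met the condition on junctions and pseudogenes. Within classes the median was -0.73, 12 fell and 1 was higher. Of the 94 members without a junction or named pseudogene, 43 were these histones. Their class median of -1.81 thus holds part of their own change. The 56 other members without a junction had a median of -0.83 and 19 of them fell, with a control median of 0.12. The median of the list was negative in each of the 13 settings that could be computed. Median depth behind these genes at 48 h was 32.5 reads.

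The stem-loop letters were searched in the last 100 bases of the longest deposited transcript of each gene. They occurred in 42 of 46 histone members (91.3%), of which 41 fell, and in 1 of 3356 other members with a gene model, H2AC25, a histone gene not on the list with a change of -0.49. Of the 4 histone members without them in that window (H2BC21, H2BC5, H2BC18 and H2BC12), 3 fell. Letters further upstream were not searched, so a stem-loop there would be missed. Ends of 4 histones among those that fell most are shown to display the shared element, in capitals with flanking bases, at chr6:26216441-26216466 (minus strand), chr1:149784780-149784803 (minus), chr6:26021155-26021180 (plus) and chr6:26027124-26027149 (minus) of GRCh37, in the order printed.
H2BC8: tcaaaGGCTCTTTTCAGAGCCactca
H3C13: ctaaaGGCTCTTTTCAGAGCCact
H3C1: gcaaaGGCTCTTTTCAGAGCCaccac
H4C2: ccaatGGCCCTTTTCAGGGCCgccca
H2BC8, a core histone H2B gene, was at 289, 328 and 197 FPKM in control at 24 h, SAF-A siRNA at 24 h and control at 48 h, and at 27.3 in SAF-A siRNA at 48 h, on about 8.13 reads. H4C2, an H4 gene and among the most abundant, was at 1805, 2238, 1578 and 292 FPKM. Its late SAF-A value was low against all 3 others. H3C6 (30.0 to 22.3 FPKM) and H2BC12 (138 to 78.6) did not reach 2-fold. TATAAA occurred in 30 of 43 histone promoters (69.8%) and 7.04% of members, and CCAAT in 35 of 43 (81.4%). Histone genes weigh on chromosome 6, where 26.0% of 196 members fell (median 0.17). Without histones 10.1% of its 159 members fell and the median was 0.50. Chromosome X, where SAF-A is known to hold XIST RNA, had 99 members with a median of 0.55, of which 35.4% rose. Over all members the median was 0.48 and 28.8% rose, and chromosome 19 also had 35.4% higher (223 members, median 0.72).

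Many genes of sterol and fatty acid synthesis were higher at 48 h. Their transcription is driven by SREBP factors when membrane cholesterol is low. Of 23 members 12 rose and 0 fell, and all 23 had a positive change, with a median of 1.23 (0.75 above all members). The level rule admits genes through their 48 h level. The median was 0.72 over the 20 genes chosen by the control libraries and 0.92 over all 37 list genes with no FPKM filter. The control pair had a median of 0.23 and 1 gene higher. Within classes 6 rose, and 9 of 15 members with 2 or more junctions per kb and no named pseudogene rose (median 1.33). LSS, the cyclase that forms lanosterol, was at 23.2, 19.6 and 24.6 FPKM in control at 24 h, SAF-A siRNA at 24 h and control at 48 h, and at 191 in SAF-A siRNA at 48 h, 9.77-fold over 24 h. INSIG1, which retains the SREBP complex in the endoplasmic reticulum, was at 30.6, 31.9, 68.7 and 152 FPKM. It was thus higher at 48 h in control cells too, by 1.14 on the log2 scale. SQLE and IDI1, also synthesis enzymes, did not reach 2-fold (21.03 to 26.9 and 41.8 to 43.4 FPKM). CCAAT occurred in 13 of 17 promoters of the list (76.5%).

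Of 18 p53 targets 7 rose and 0 fell, with a median of 0.87 (control 0.13, where none was called). The median was 0.66 over the 13 genes chosen by the control libraries and 0.75 over all 34 list genes with no FPKM filter. The 7 were among the 8 members with 2 or more junctions per kb and no named pseudogene (median 1.75), and 6 rose within classes. Of all members that met this condition 38.6% rose. FDXR, a mitochondrial reductase that entered through its 48 h level, was at 14.1 FPKM in SAF-A siRNA at 24 h and 89.0 at 48 h. Its controls were at 14.1 and 13.7. RPS27L, a ribosomal protein paralog, was at 192 and 879 FPKM, with controls at 144 and 174. FAS, the death receptor, went from 44.97 to 173 and BAX, which permeabilises mitochondria, from 111 to 351 FPKM. CDKN1A, the cyclin-dependent kinase inhibitor p21, was at 123, 141, 138 and 261 FPKM in control at 24 h, SAF-A siRNA at 24 h, control at 48 h and SAF-A siRNA at 48 h, a change of 0.89 that missed 2-fold. MDM2, which degrades p53, stayed at 32.1 and 35.2 FPKM.

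The respiratory chain and proteasome lists were higher, and less so within classes. Of 74 respiratory chain members 34 rose and 4 fell (median 0.94, control 0.18). Within classes the median was 0.42 with 16 higher and 6 lower, and 12 of 17 members with 2 or more junctions per kb and no named pseudogene rose. NDUFA13 of complex I was at 169 and 866 FPKM in SAF-A siRNA at 24 h and 48 h (controls 141 and 170). SDHD of complex II went the other way, from 41.3 to 15.9 FPKM. Of 31 proteasome members 20 rose and 3 fell (median 1.13, control 0.05). Within classes 4 were higher and 3 lower (median 0.29), and the members had a median of 5.81 junctions per kb against 3.77 for all. Among the 13 with 2 or more junctions per kb and no named pseudogene 10 rose and 0 fell (median 1.13). Of all members that met this condition 38.6% rose (median 0.77). PSMB4, a beta subunit of the core particle, was at 243 and 953 FPKM with controls at 225 and 237. PSMC1, an ATPase of the regulatory particle, went from 92.7 to 43.7 FPKM.

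Ribosomal proteins moved both ways, with more lower than higher. Of 77 members 9 rose and 15 fell (28.8% and 10.4% of all members). Their median of -0.54 (control 0.14) was negative in each of the 13 settings computed. Within classes the median was -0.85, with 5 higher and 34 lower. All 77 had a named pseudogene. RPS21, of the small subunit, was at 443, 527, 512 and 2918 FPKM in control at 24 h, SAF-A siRNA at 24 h, control at 48 h and SAF-A siRNA at 48 h. RPS29, also of the small subunit, was at 498, 1064, 921 and 360 FPKM. RPS21 was high in the late SAF-A library alone. RPS29 was lowest there, but the early control also lay well under the early SAF-A and late control libraries, and the controls differed by 0.88 in the opposite direction. RPL37A, the most abundant, went from 2067 to 6113 FPKM. Of 34 translation factors 5 rose and 7 fell. Their median of 0.30 turned negative after centring on all members or within classes. EIF3H, of the scaffold complex of initiation, went from 87.0 to 289 FPKM and EIF1AX, which scans for the start codon, from 39.4 to 6.03.

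Lists of nuclear proteins held more genes that fell than rose, or equal numbers. Of 28 hnRNP and SR genes 8 fell and 0 rose, with a median of -0.58 (control -0.04). Within classes 7 fell and 0 rose, with a median of -0.56, and the median was negative in each of 14 settings. Of these 28, 21 had a named pseudogene. Among the 6 with 2 or more junctions per kb and no pseudogene none was called and the median was -0.03. HNRNPA1, a splicing repressor with 75 named pseudogenes, was at 91.7, 80.3 and 90.7 FPKM in control at 24 h, SAF-A siRNA at 24 h and control at 48 h, and at 18.7 in SAF-A siRNA at 48 h. HNRNPC, which packages nascent RNA, went from 189 to 69.6 FPKM and SRSF3, a splicing activator, from 123 to 42.5. HNRNPA2B1 (79.9 and 82.2) and HNRNPM (46.5 and 60.7) were under 2-fold. Of 26 core spliceosome members 2 rose and 2 fell (median 0.11, with a sign that changed in 6 of 14 settings). SF3B1, which recognises the branch point, went from 68.0 to 168 FPKM.

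Of 24 chromatin architecture members 7 fell and 1 rose. Their median of -0.65 was -0.58 within classes (8 lower, 0 higher), and it was positive in 1 of 14 settings, at 0.77 over the 9 members with 2 or more junctions per kb and no named pseudogene. HMGB1, a DNA-bending protein, was at 85.5, 95.8, 60.5 and 17.04 FPKM in control at 24 h, SAF-A siRNA at 24 h, control at 48 h and SAF-A siRNA at 48 h. STAG2, a cohesin subunit, was at 26.6 and 63.6 FPKM in SAF-A siRNA at 24 h and 48 h. Of 18 nuclear envelope and import members 4 fell and 1 rose. Their median of -0.39 was -0.84 within classes (8 lower, 0 higher), and it was positive in the same setting alone, at 0.18 over 13 members. The lamins that line the nucleus moved apart. LMNA, of the A type, was at 306, 297 and 296 FPKM in control at 24 h, SAF-A siRNA at 24 h and control at 48 h, and at 744 in SAF-A siRNA at 48 h. LMNB1, of the B type, was at 77.4, 57.9, 83.8 and 22.9 FPKM in that order. TMPO, which anchors lamina to chromatin, went from 92.0 to 14.4 FPKM. Of 4 nuclear long noncoding RNAs CYTOR rose (108 to 272 FPKM) and DANCR fell (64.2 to 21.9), and both are also known in the cytoplasm. MALAT1, retained in nuclear speckles, was at 45.4 and 31.7 FPKM.

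Matrix and adhesion genes were mixed. Of 30 extracellular matrix members 10 rose and 2 fell (28.8% and 10.4% of all members). Their median of 0.74 became -0.04 within classes. COL5A2, a fibrillar collagen chain, was at 17.5, 19.4, 30.8 and 103 FPKM in control at 24 h, SAF-A siRNA at 24 h, control at 48 h and SAF-A siRNA at 48 h. SPARC, a collagen-binding protein, was at 152, 173, 201 and 652 FPKM. Both were higher at 48 h in the controls too, though by less than 2-fold. THBS1, an adhesive glycoprotein, was at 362, 478, 309 and 101 FPKM. FN1, fibronectin, went from 400 to 294 FPKM, under 2-fold.

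Targets of YAP, a coactivator that responds to cell spreading and density, were lower. Of 12 members 5 fell and 1 rose (median -0.71, control -0.10), and 3 of 6 with 2 or more junctions per kb and no named pseudogene fell. Within classes 5 fell and 0 rose (median -0.67). The median was negative in each of 14 settings. CCN2 was at 83.4, 103 and 93.0 FPKM in control at 24 h, SAF-A siRNA at 24 h and control at 48 h, and at 14.6 in SAF-A siRNA at 48 h. ANKRD1 was at 573, 511, 480 and 116 FPKM. The member that rose was MYOF, which repairs membranes, from 78.8 to 296 FPKM. Of 37 actin cytoskeleton members 9 rose and 3 fell (28.8% and 10.4% of all members). The actin median of 0.31 turned negative after centring on all members or within classes. ACTA2, smooth muscle actin, was at 17.7, 20.99, 11.4 and 97.6 FPKM, lower at 48 h in the controls and higher in the SAF-A pair. TAGLN2, which binds actin, went from 204 to 66.1 FPKM.

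Signal-responsive genes were few among the members. Of 9 interferon response genes 5 rose and 0 fell (median 1.07, control 0.27), and all 9 had 2 or more junctions per kb and no named pseudogene. Some entered through their 48 h level: the median was 0.75 over the 6 genes chosen by the control libraries and 0.29 over all 44 list genes with no FPKM filter. STAT2, which carries the interferon signal to the nucleus, was at 14.005 and 52.1 FPKM in SAF-A siRNA at 24 h and 48 h, with controls at 12.2 and 16.2. B2M, the light chain of MHC class I, went from 615 to 1290 FPKM. Within classes 1 of the 9 was higher, IFI6 (7.61 to 39.0 FPKM). Of 7 NF-kB genes SOD2 rose (38.1 to 119 FPKM) and LIF and CXCL8 fell (35.9 to 8.94 and 44.2 to 16.97). Of 9 immediate early genes BTG1 rose and HBEGF, MCL1 and JUN fell. Their median of -0.32 turned positive within classes. JUN was at 47.6, 43.9, 70.0 and 18.7 FPKM, high in the late control and low in the late SAF-A library. Of 5 ID and TGF-beta feedback genes ID1 and ID3, inhibitors of bHLH factors, fell (58.5 to 5.92 and 94.4 to 22.2 FPKM). In the controls ID3 also fell, from 66.2 to 16.97 FPKM.

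Stress and metabolic lists held members that rose and members that fell. Of all members 28.8% rose and 10.4% fell, and whether any of these lists differs from those shares was not tested. Of 25 ATF4 targets 6 rose and 3 fell (median 0.46). DDIT4, an inhibitor of mTORC1, was at 11.4, 15.9, 26.3 and 126 FPKM in control at 24 h, SAF-A siRNA at 24 h, control at 48 h and SAF-A siRNA at 48 h, and SLC7A11, the cystine carrier, was at 58.5, 55.3, 38.5 and 13.2. Of 27 ER chaperone genes 7 rose and 1 fell (median 0.44): CALR, which folds glycoproteins, went from 450 to 961 FPKM and PDIA3, its partner, from 45.5 to 8.94. The medians of both lists turned negative after centring on all members or within classes. Of 24 heat shock members 2 rose and 6 fell (median -0.14, positive on the TPM scale and over the members with 2 or more junctions per kb and no named pseudogene). HSPA8, the constitutive HSP70, went from 1154 to 482 FPKM. Of 20 glycolysis and hypoxia members 7 rose and 3 fell (median 0.46, -0.02 after centring). PKM went from 739 to 1800 FPKM. Of 18 snoRNA host genes 3 rose and 3 fell (median -0.23, positive over the 10 members that met the condition on junctions and pseudogenes). Of 39 genes for small GTPases and trafficking 10 rose and 3 fell (median 0.58), and 3 were higher and 2 lower within classes. COPE, a subunit of the COPI coat, went from 64.9 to 267 FPKM and ARF6 from 41.4 to 7.70.

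By size of change, the genes that rose most included read-through transcripts whose exons overlap those of their neighbours. URGCP-MRPS24 was listed at 2.67e-37 FPKM or less in the other 3 libraries and at 101 FPKM in SAF-A siRNA at 48 h. Summed with URGCP and MRPS24, the locus was at 128 FPKM in control at 24 h, 128 in SAF-A siRNA at 24 h, 118 in control at 48 h and 281 in SAF-A siRNA at 48 h. NME1-NME2 went from 8.71 to 264 FPKM, but the sum with NME1 and NME2 was 834, 871, 907 and 844 FPKM in the same order. The assignment of reads among such overlapping rows is uncertain.

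Next among the genes that rose were WFDC21P, a noncoding RNA from a pseudogene (2.81 to 76.9 FPKM, controls 1.71 and 5.45), and HSD17B14, a steroid and sugar dehydrogenase (2.49 to 65.2, controls 1.76 and 3.996). SYTL2, an effector of RAB27 in vesicle transport, went from 2.43 to 54.5 FPKM. Its exons overlap another deposited row, so the assignment of its reads is uncertain too. GSN, the actin-severing protein gelsolin, was at 4.77, 4.32, 4.03 and 60.4 FPKM in control at 24 h, SAF-A siRNA at 24 h, control at 48 h and SAF-A siRNA at 48 h. An antisense gene overlaps its exons, as does CEMP1 on the opposite strand of AMDHD2 (10.0 to 107 FPKM), and whether the counting used strand is not given in the sources used here. ALDH2, which oxidises acetaldehyde, went from 3.88 to 41.2 FPKM, NUPR1, a stress-induced nuclear protein, from 3.49 to 37.7, and SAT1, the polyamine acetyltransferase, from 18.97 to 162. GLMP, GRN and FUCA1, all of the lysosome, completed the 15 with LSS and CTSK: GRN, progranulin, was at 31.4, 27.3, 39.7 and 224 FPKM. With less than 1.5-fold change between the controls, the next largest excesses were those of the sarcoglycan SGCE (19.2 to 125 FPKM), the serpin SERPINB7 (8.03 to 67.6), the methyltransferase SMYD3 (8.17 to 47.7), the glutathione transferase MGST3 (21.9 to 138) and the collagen receptor ANTXR1 (10.4 to 62.6).

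The genes that fell most were led by VDAC1, the anion channel of the outer mitochondrial membrane, at 141, 121 and 147 FPKM in control at 24 h, SAF-A siRNA at 24 h and control at 48 h, and at 4.56 in SAF-A siRNA at 48 h. It has 13 named pseudogenes, overlaps other deposited rows and rested on about 9.94 reads at 48 h. Histones made up 6 of the 15: H2BC8, H3C13, H3C1, H4C2 and the near-identical copies H4C15 and H4C14, each at 1574 and 180 FPKM, whose reads cannot be told apart. RPL13AP5 (259 to 27.5 FPKM) overlaps RPL13A and is likewise uncertain. NCEH1, a neutral cholesterol ester hydrolase, was at 65.9, 52.0, 60.7 and 5.04 FPKM. MSMP (59.5 to 4.36 FPKM), H3C1 (66.0 to 6.20) and UHMK1 (38.5 to 3.65), a kinase of splicing factors, fell in the controls too. There MSMP went from 53.2 to 25.3 FPKM, H3C1 from 50.4 to 23.9 and UHMK1 from 26.1 to 7.83. RGP1 on the opposite strand overlaps the exons of MSMP. At 48 h of SAF-A siRNA, MSMP rested on about 2.53 reads, H3C1 on 2.03 and ID1 on 6.03, each with a deposited lower bound of 0. GJA1, the gap junction protein connexin 43, went from 79.1 to 9.41 FPKM, TWF1, an actin-binding protein, from 72.6 to 8.10, and PNMA2 from 39.8 to 3.94. ID1 completed the 15. Among genes with less than 1.5-fold change in the controls, the depalmitoylase LYPLA1 (59.7 to 9.16 FPKM), CCN2, MAD2L1 and the histones H2BC21 and H2AC21 had the next largest excess downward.

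**Figure D5:**
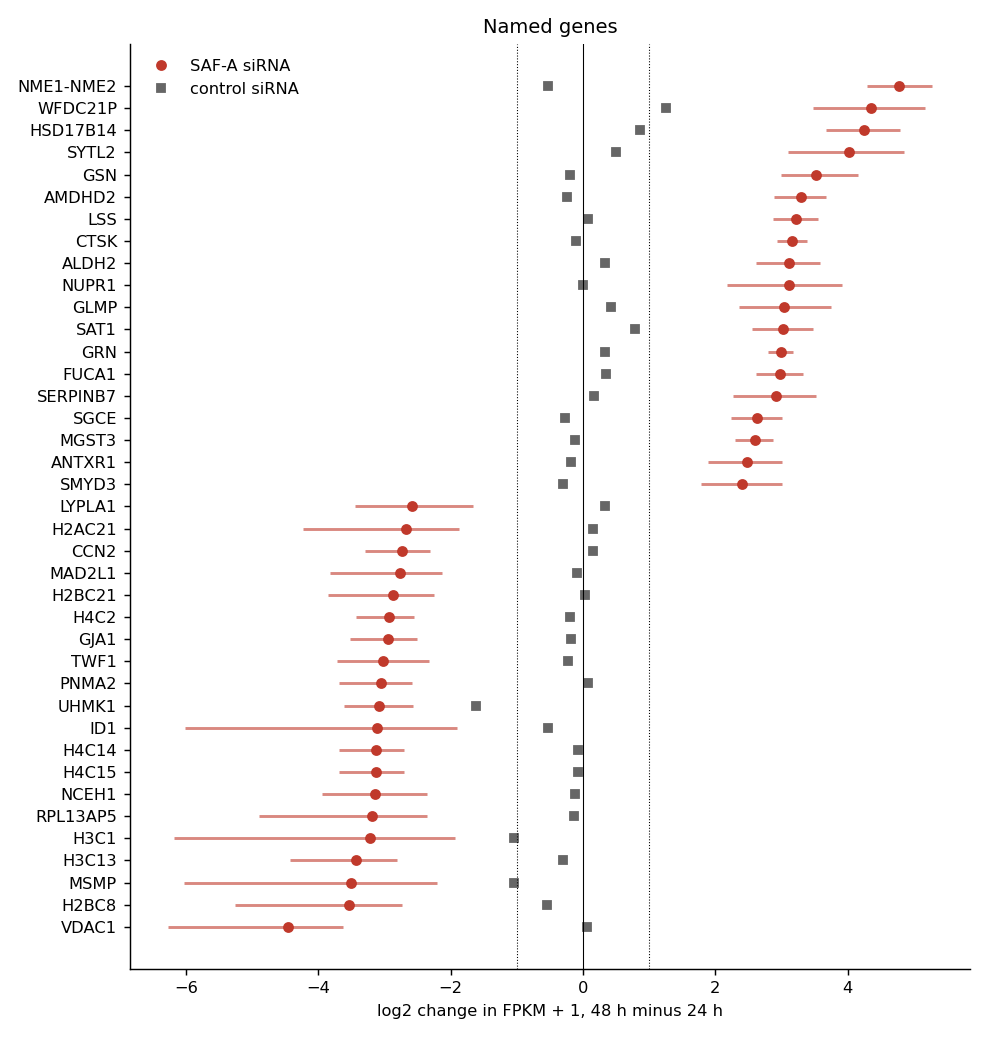
Log2 change from 24 h to 48 h of the named genes in the SAF-A siRNA pair (points, with the range that the deposited 95% bounds allow) and in the control pair (squares); URGCP-MRPS24 is left out because its value at 24 h was effectively 0. Control squares lie near 0 for most genes, with UHMK1 at -1.62 and WFDC21P at 1.25 the furthest among those that fell and rose most.

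The controls went the other way by 1.5-fold or more for 15 of the called genes. KRT18, a keratin of simple epithelia, was at 142, 124, 229 and 23.3 FPKM in control at 24 h, SAF-A siRNA at 24 h, control at 48 h and SAF-A siRNA at 48 h, and its partner KRT8 was at 41.9, 36.8, 63.9 and 15.4. Both were among 7 members with a deposited status other than OK, as were HNRNPF and HNRNPK. ALDH1A3, which makes retinoic acid, was at 52.4, 38.5, 102 and 14.7 FPKM. NCKAP1, of the WAVE actin regulator, was at 39.5, 56.6, 18.1 and 122 FPKM, and PLS3, an actin bundler, at 172, 232, 103 and 505. VEGFC, a lymphatic growth factor, was at 12.9, 14.5, 7.76 and 45.9 FPKM. In each of these the late libraries lay further apart than the early ones.

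The level rule cuts through a dense range. Just inside were B4GALT7 (mean 20.0 FPKM, change 0.67), VGLL4 (1.16), PDLIM1 (1.57), HTATSF1 (-0.38) and CDK7 (0.89), and just outside were CNPPD1 (0.77), PGM1 (0.24), ZMAT5 (1.29), ZDHHC20 (-0.77) and DDX52 (0.44).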

How the data were processed

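The 4 libraries each came with values per gene and per transcript. FPKM values and their 95% bounds were computed by the authors, per the file headers, and coverage per transcript was deposited with them. The submitters' processing notes name hg19, TopHat, TopHat2 2.0.10, Bowtie2 2.1.0, Cufflinks 2.2.1 and Cuffdiff, without roles, and how strand and multiply mapped reads were treated is not given in the sources used here. Of 47338 rows, 97.1% matched a RefSeq symbol. The values and bounds of a symbol's rows were summed, which makes the bounds too wide. Mapped reads were derived from deposited coverage and FPKM.

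Changes are differences of log2(FPKM + 1), 48 h minus 24 h, called at 2-fold, with no test. Members and gene lists were chosen with earlier results of these data known. Genes were named by rule: HNRNPU; the 15 largest rises and the 15 largest falls, with status OK and intervals that did not overlap; the 5 each way with the largest excess over controls changed by less than 1.5-fold; up to 4 per list plus those its roles required; and the 5 on each side of the level limit. Genes under "the controls went the other way" and the motif CACGTG were chosen after values were seen. Exon structure came from the deposited transcript files, whose exons were 89.0% identical to GENCODE v44lift37, and promoters from RefSeq. Scripts used Python 3.11.15, pandas 2.3.3, numpy 2.4.6 and scipy 1.17.1 and were tested on simulated data. Alternative filters, scales and thresholds are in the closing section. Values of some single genes are not reported here.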

Additional observations from a re-analysis of the deposited data

Results flagged for a closer look

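Flagged were 4 gene lists whose median changes from 24 h to 48 h had opposite signs in the SAF-A siRNA pair and the control pair. A minimum size was required in both pairs. Also flagged was the 1 gene called at 2-fold in opposite directions. Lists of opposite sign with smaller control medians were not flagged: ER chaperones (0.44 and control -0.09), NF-kB genes (0.67 and -0.09) and snoRNA host genes (-0.23 and 0.06). With 1 library a side the difference was not tested in any of them. Cytosolic ribosomal proteins had a median log2 change of -0.54 in the SAF-A pair and 0.14 in the control pair. Actin cytoskeleton genes had 0.31 and -0.11. Immediate early genes had -0.32 and 0.52, and nuclear long noncoding RNAs, a list of 4 members, had -0.41 and 0.29. NCKAP1 changed by 1.10 in the SAF-A pair and by -1.08 in the control pair. The SAF-A medians of actin, immediate early and noncoding RNA genes changed sign in at least 1 alternative setting.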

How the results depend on the processing

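The comparisons rest on 1 library per condition, so no library could be left out. No paired analysis was possible because each group has 1 library and no result comes from a test. Counts are given as higher and lower in the SAF-A pair, then in the control pair. As reported they were 980 and 353, then 8 and 17. A pseudocount of 0.1 gave 13 higher in the control pair. With no filter on FPKM the counts were 1796 and 1866, then 72 and 56; with a mean of 5 FPKM or more 1513 and 952, then 30 and 30; with 50 or more 514 and 154, then 4 and 9. Centring on the median of all members gave 437 and 649 in the SAF-A pair. Rescaling to TPM gave 18 and 11 in the control pair. Without the length filter the SAF-A pair had 578 lower, and the control pair 62 and 52. Using only the row with the highest FPKM gave 33 and 36 in the control pair. A 1.5-fold threshold gave 1554 and 609, then 71 and 80, and a 4-fold threshold 140 and 88, then 0 and 2. HNRNPU at 48 h, 88.5% of 24 h as reported, was 63.6% after centring, 122% by its highest row alone, 76.6% after rescaling genes of 300 nt or more and 104% on the TPM scale. Pearson correlations of the change were 0.043 with spliced length (Spearman -0.02), 0.27 with exon number and 0.024 with mean level. Of alternatives added after the data were seen, centring within classes of junction density and pseudogenes gave 365 higher, and members with 2 or more junctions per kb and no named pseudogene gave 56 lower, then 3 and 5 in the control pair. Choosing genes by the control libraries gave 665 and 516. Of list medians, 46 moved outside an interval set around the reported median by the ranked changes of the list's genes, and 315 did not. For changes of named genes, 41 moved outside the range that the deposited bounds allow, and 196 did not. Neither criterion is the spread across genes. The cause was not tested.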
